A study of Mus musculus with 4 samples.

Results

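Gene expression was compared in the ventral midbrain (VM) of E11.5 fetuses, between cells that stained for CORIN and cells that did not. The mice were of the C57BL/6N strain. Each population was measured on 1 array, so these are 2 of the 4 arrays of the study. The difference was taken as the log2 signal of the CORIN+ array minus that of the CORIN- array, for the 21789 of 28856 transcript clusters (groups of probes along 1 transcript) that are paired with 1 gene symbol. These clusters represent 19938 genes, and a gene with several clusters is represented by its brightest one. The other 2 arrays serve here only as a reference outside the fetus. They hold cells made from 129SVEV embryonic stem cells (ESCs) with a GFP knock-in at Lmx1a, sorted on day 9 as CORIN+LMX1A::GFP+ or, in the second array, as CORIN-LMX1A::GFP+. The fetal cells were separated by CORIN alone, and no treatment or reporter is named for them. Each RNA came from at least 100000 sorted cells, and the sources do not state how many fetuses were pooled. With 1 array per population there is no replicate check, no error and no p-value for any difference, and precision is limited by this number of arrays.

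The floor plate is the strip of progenitors along the ventral midline of the neural tube. It secretes Sonic hedgehog and axon guidance cues, and in the midbrain its progenitors divide and give rise to dopaminergic neurons, while the progenitors beside it form GABAergic, red nucleus and oculomotor neurons. At this stage the midbrain is also being entered by blood vessels and by macrophages from the yolk sac, and it is wrapped in loose mesenchyme that will form the meninges. A dissected VM can therefore hold neural, blood, vessel and mesenchymal cells.

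The 3 markers of the sorted cells were all higher in the CORIN+ array. Corin, a serine protease of the cell surface and the target of the sort, had log2 signals of 11.43 and 7.28 in the CORIN+ and CORIN- arrays (17.7-fold), the direction that the labels give. Alcam, an adhesion molecule of the floor plate, had signals of 12.02 and 9.89 (4.37-fold). The paper also describes ALCAM as a marker of microvascular endothelium and saw it in dorsal midbrain. The part of other cells in its value was not tested. Slit2, a secreted repellent of commissural axons, had signals of 12.62 and 11.15 (2.77-fold). The sort selected on the product of Corin, so its difference is no finding, and the floor plate list below is also given without it.

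The differences were lopsided. Among single-symbol clusters, 717 (3.29%) were higher in CORIN+ cells by 2-fold or more and 98 (0.45%) were lower by as much, around a median difference of -0.04. By gene these were 627 higher (3.14%) and 91 lower (0.456%). The higher tail also reached further, with 146 clusters past 4-fold against 0 on the lower side. The largest difference was 47.9-fold higher (Ly86) and the largest in the other direction 3.66-fold lower (Sox14). One gene made up a visible share of the count, because Hmcn1, which codes for the matrix protein hemicentin, is covered by 77 clusters, of which 57 were at least 2-fold higher. Without them 660 higher clusters remained. The olfactory receptors, which belong to another tissue, give a view of the spread where little RNA is present. All 1015 of them lay between -0.49 and 0.58, with 0 past 2-fold.

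Of the 717 higher clusters, 410 had a CORIN- signal under the median of that array (7.97), where a signal may be close to the floor of the array. By definition 50% of all clusters on an array lie under its median, so 410 of 717 is not far above that share. Of the 98 lower clusters, only 21 had a CORIN+ signal under the median of its array (8.03). The lower genes thus mostly kept a signal above the median in both populations, which many of the higher ones did not. How near the floor a dim signal lies cannot be judged without detection calls.

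**Figure D1:**
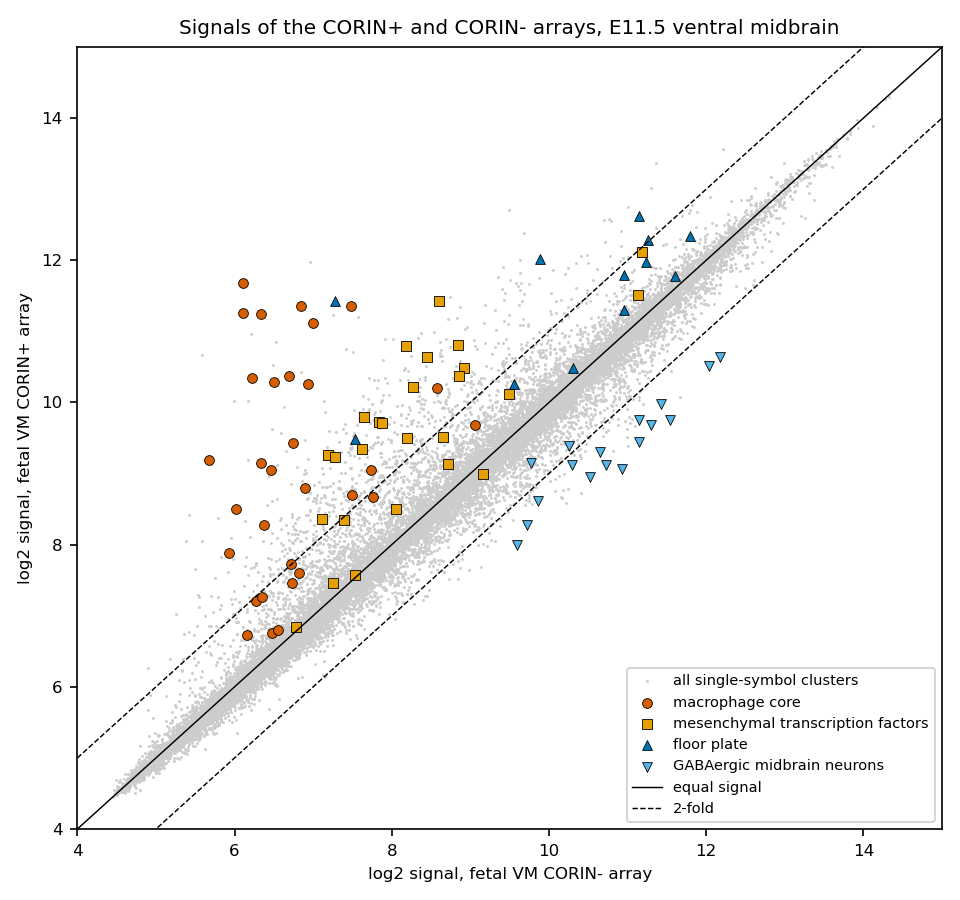
Log2 signal of each single-symbol transcript cluster on the fetal CORIN- array (x axis) and CORIN+ array (y axis), 1 array each, with 4 gene lists in colour, the line of equal signal and dashed lines at 2-fold. The macrophage genes lie at the dim end of the CORIN- array and reach 47.9-fold above the line, while the GABAergic genes lie below the line with signals of 9.59 to 12.17 in CORIN- cells.

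Genes were read by 42 lists of cell types, regions and pathways, with 835 measured entries. Past 2-fold, blood cell and macrophage genes were higher in 50.7% of 140 genes and lower in 0.0%, and genes of mesenchyme, vessels and other non-neural tissue were higher in 31.1% of 167 and lower in 0.599%. Neuronal genes ran the other way, with 2 of 95 higher (2.11%) and 19 lower. Of these 19, 15 were on the GABAergic list of 17 genes, and the rest were Syt4, Syt1, Isl1 and Calb1. The 2 higher neuronal genes were Hey2 and Heyl, which vascular cells also express. Past 2-fold the neuronal share thus came mostly from 1 list, although 83 of the 95 genes lay below 0. Neural progenitor and patterning genes were split, with 13.8% of 152 higher (13.2% of 151 without Corin) and 8.55% lower. Both shares of higher genes count the 5 surface candidates that the study chose on these same arrays, all at least 2-fold higher. They also count the roof plate list (8 of 16 at least 2-fold higher), whose Msx, Bmp and Zic genes cranial mesenchyme also expresses. The classes overlap: Helt, Nkx2-2, Dlx1, Dlx2, Six3, Gata2 and Gata3 count as lower in both the progenitor and the neuronal class. The class shares stand beside 3.14% and 0.456% over all genes, and the lists were chosen for cell types already known to differ here. In bulk RNA, fewer cells of a type and less RNA per cell cannot be told apart.

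**Figure D2:**
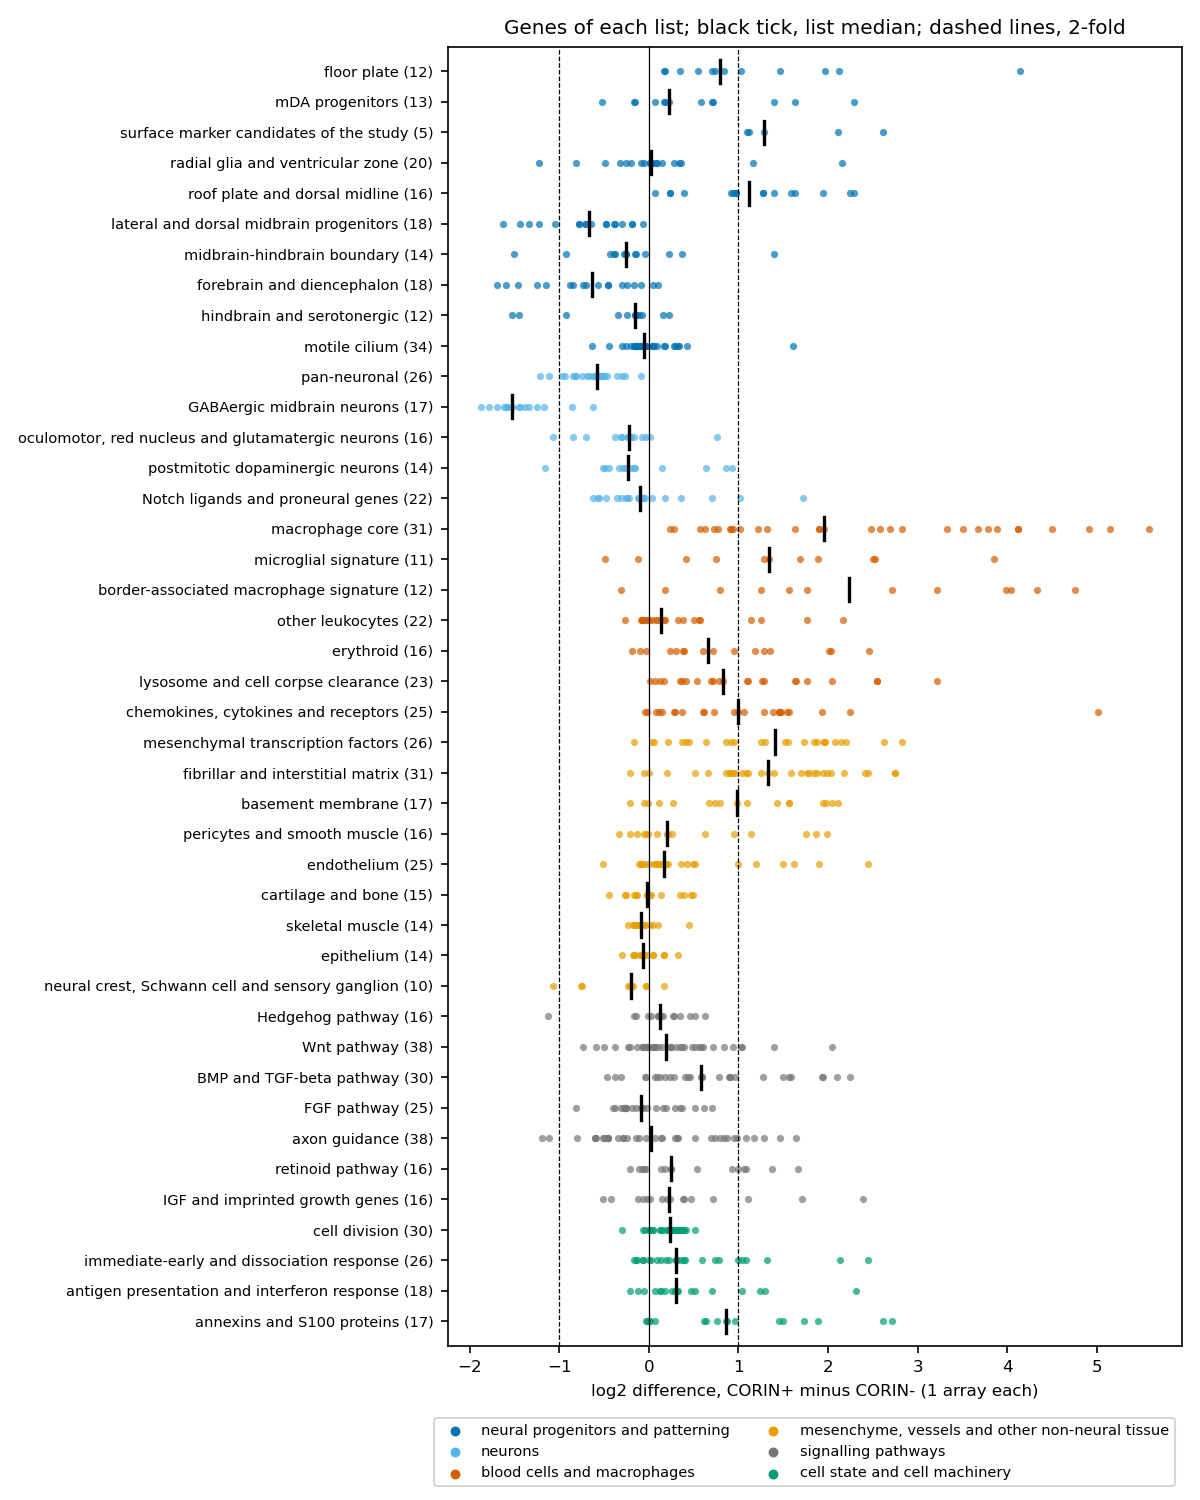
Log2 difference (CORIN+ minus CORIN-, 1 array each) of every measured gene in each list, coloured by class, with the number of measured genes in brackets, the list median as a black tick and dashed lines at 2-fold. Macrophage, mesenchymal and matrix lists spread to the right, with medians of 1.95, 1.41 and 1.33, and the GABAergic list lies furthest to the left, with a median of -1.53.

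The largest differences of the comparison belonged to macrophages. Of 31 measured genes of the macrophage core list, 22 were at least 2-fold higher in CORIN+ cells, 0 were 2-fold lower and all 31 lay above 0, with a median of 1.95. Their signals ranged from 6.73 to 11.69 in CORIN+ cells and from 5.68 to 9.05 in CORIN- cells, where 29 of 31 were under the array median. Ly86, the partner protein of a receptor related to the toll-like receptors, had signals of 11.69 and 6.11 (47.9-fold), and Cd180, that receptor itself, 10.43 and 6.85 (3.58 on the log2 scale). C3ar1, a complement receptor, had signals of 11.26 and 6.11 (35.5-fold). Csf1r, the receptor on which macrophages depend for survival, had signals of 11.36 and 6.85 (22.7-fold). The complement genes C1qb and C1qc were 30.1-fold and 12.7-fold higher, and C1qa, with signals of 8.80 and 6.90, was 3.72-fold higher. Spi1, which codes for the myeloid transcription factor PU.1, had signals of 9.15 and 6.33 (7.07-fold). Members under 2-fold included Aif1 (0.94 on the log2 scale), Itgam (0.92) and Trem2 (0.91), and the lowest were Cd14 (0.28) and Lyz1 (0.24). In the ESC-derived arrays Ly86 was at 6.03 and 6.14 and C1qb at 6.21 and 6.22, close to their fetal CORIN- signals of 6.11 and 6.34.

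Genes of 2 signatures of brain macrophages, border-associated and microglial, were higher in part. Whether both kinds of cell were present was not tested. Of 12 genes of border-associated macrophages, which sit in the meninges and around vessels, 9 were at least 2-fold higher (list median 2.24). Mrc1, the mannose receptor, had signals of 10.96 and 6.21 (27.0-fold). F13a1, a clotting factor subunit made by macrophages, had 10.86 and 6.53 (20.1-fold), and Lyve1, a hyaluronan receptor, 10.53 and 6.48 (16.5-fold). The scavenger receptor Stab1 was 15.9-fold higher. Cd163 stood apart, at 6.06 and 6.38 (-0.32). Of 11 genes of the microglial signature, 7 were at least 2-fold higher (list median 1.34). Fcrls had signals of 10.02 and 6.17 (14.4-fold), Cx3cr1, the fractalkine receptor, 10.32 and 7.82 (5.65-fold), and P2ry12, a purine receptor, 8.17 and 6.48 (3.21-fold). The transcription factors Sall1 (-0.13) and Sall3 (-0.49), which neural progenitors also express, were not higher.

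Most genes of other leukocytes lay under 2-fold. Of 22 genes of lymphocytes, granulocytes, mast cells and platelets, 4 were at least 2-fold higher and the median was 0.14. These 4 were Mpo, the granule enzyme of granulocyte precursors (signals of 9.34 and 7.17, 4.49-fold), the mast cell protease Cpa3 (7.02 and 5.25), the B cell receptor subunit Cd79b (8.39 and 7.14) and the neutrophil granule gene Ngp (7.20 and 6.06). The T cell receptor subunits Cd3d, Cd3e and Cd3g differed by 0.10, -0.05 and -0.02, with signals between 5.91 and 7.10 in both populations.

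Lysosomal genes and a part of the chemokine genes were higher. Of 23 genes of lysosomes and corpse clearance, 11 were at least 2-fold higher and none was lower than in CORIN- cells, with a median of 0.83. The protease genes Ctsc (3.21 on the log2 scale, 9.27-fold) and Ctss (2.54, 5.83-fold) were among the highest, whereas the housekeeping lysosomal genes Psap (0.12) and Npc2 (0.01) lay near 0. Apoe, a lipid carrier made by macrophages and by radial glia and chosen here after its values were seen, had signals of 12.38 and 9.68 (2.70 on the log2 scale). Among 25 chemokine, cytokine and receptor genes, 12 were 2-fold or more higher and 0 lower, and 23 lay above 0. Whole chemokine families differed less, since 4 of 19 Ccl genes (family median 0.05) and 1 of 13 Cxcl genes (family median -0.03) were at least 2-fold higher. Ccl3, a chemokine of activated macrophages, had signals of 11.98 and 6.96 (32.4-fold), while its neighbour in the family Ccl4 was at 7.06 and 6.98. Cxcl12, a chemokine secreted by meningeal mesenchyme, had signals of 10.86 and 8.61 (4.74-fold). Il1b and Tnf, cytokines of inflammation, differed by 0.37 and 0.15 and were dim in both arrays.

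Embryonic globin genes were higher in CORIN+ cells, but the erythroid list was uneven. Of 16 measured genes, 6 were 2-fold or more higher and 0 were 2-fold lower (list median 0.66). The globin Hbb-bh1 had signals of 11.18 and 8.72 (5.50-fold), Hba-x 13.37 and 11.36 (4.02-fold) and Hbb-y 13.57 and 12.21 (2.56-fold). The last globin measured, Hbb-bh2, was at 6.49 in both. Slc4a1, the anion exchanger of the red cell membrane, had signals of 10.65 and 8.61 (4.11-fold), and Alas2, the first enzyme of haem synthesis in red cells, 8.76 and 7.47 (2.43-fold). The erythroid transcription factors Gata1 (0.30), Klf1 (-0.10) and Nfe2 (-0.03) lay under 2-fold. In the ESC-derived arrays Hbb-bh1 was at 5.42 and 5.64, Hba-x at 7.52 and 7.59 and Hbb-y at 6.21 and 6.39, all below both fetal arrays.

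A mesenchymal programme was also higher in CORIN+ cells. Of 26 measured mesenchymal transcription factors, 15 were at least 2-fold higher, 0 were 2-fold lower and 25 lay above 0, with a median of 1.41. Osr1 had signals of 11.43 and 8.60 (7.11-fold), and the T-box gene Tbx18, which marks perivascular and meningeal mesenchyme, 10.80 and 8.18 (6.17-fold). The forkhead genes Foxc2, Foxc1 and Foxf2, regulators of meningeal and perivascular mesenchyme, were 4.60-fold, 3.87-fold and 3.87-fold higher. Snai2 (4.42-fold), Tbx15 (4.23-fold) and Prrx1 (3.91-fold) were higher too, while Foxf1 (0.03) and Foxd2 (-0.17) did not differ by much. Pdgfra, a growth factor receptor of mesenchyme chosen after its values were seen, had signals of 11.19 and 8.84 (5.13-fold).

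Matrix genes of the same tissues were higher as well. Of 31 genes of fibrillar and interstitial matrix, 20 were 2-fold or more higher and 0 were 2-fold lower (list median 1.33). The small proteoglycans Ogn (9.47 and 6.72, 6.73-fold), Lum (11.49 and 8.74, 6.71-fold) and Dcn (11.82 and 9.64, 4.54-fold) were among the highest, with Lox, the collagen cross-linking enzyme (10.35 and 7.91, 5.43-fold). Col1a2 and Col1a1, the chains of type I collagen, were 4.08-fold and 3.59-fold higher. Elastin (Eln) was at 8.09 in both populations. Of 17 basement membrane genes, 8 were at least 2-fold higher (list median 0.99). Nid1 (4.31-fold), Lama2 (4.11-fold), Lamb1 (3.94-fold) and Nid2 (3.85-fold) were the highest, and the type IV collagen chains Col4a1 and Col4a2 differed by 1.56 each. Agrn, which neural cells also make, differed by -0.21.

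Vessel genes were mixed rather than uniformly higher. Among 25 genes of endothelium 5 passed 2-fold on the higher side and 0 on the lower, and the median was only 0.16. Cdh5, the cadherin of endothelial junctions, had signals of 10.98 and 8.54 (5.45-fold), Fli1 9.37 and 7.46 (3.74-fold) and Eng 9.56 and 8.07 (2.82-fold). Emcn, the sialoprotein endomucin, was 3.06-fold higher. Pecam1 (0.51), Tek (0.49), Cldn5 (0.11) and Flt1 (-0.03) were under 2-fold, and 16 of the 25 genes had a signal under the array median in both populations. Mfsd2a, a lipid transporter of brain endothelium, was the lowest at 10.33 and 10.84 (-0.52). Of 16 genes of pericytes and smooth muscle, 4 were at least 2-fold higher. They were Anpep (3.97-fold), Vtn (3.64-fold), Pdgfrb, the receptor by which pericytes are recruited (3.37-fold), and Acta2 (2.21-fold), while Rgs5 (-0.01) and Cspg4 (0.20) were near 0. Cartilage and bone, skeletal muscle and epithelium had 0 genes past 2-fold of 15, 14 and 14 measured, with medians of -0.02, -0.09 and -0.06. In skeletal muscle and in epithelium 12 of the 14 genes were under the array median in both populations.

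All measured genes of the floor plate list lay above 0. Of 12 measured genes, 5 were 2-fold or more higher, Corin among them, with a median of 0.79. Without Corin, 4 of 11 passed 2-fold on the higher side and the median was 0.74. Besides the 3 markers, Ferd3l, a basic helix-loop-helix factor of the floor plate, had signals of 9.49 and 7.53 (3.90-fold), and Sulf1, a heparan sulfate endosulfatase, 12.28 and 11.26 (2.03-fold). The secreted cues Slit1 (1.79-fold) and Ntn1 (1.67-fold) and the matrix protein Spon1 (1.46-fold) came next. The genes that define the floor plate by function differed little: Shh had signals of 11.30 and 10.95 (1.27-fold), Foxa1 11.78 and 11.60 and Foxa2 10.48 and 10.31. All 3 were above the array median in both populations.

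The 5 surface proteins that the study took up as candidates were chosen by it on these same arrays, so their direction is not independent evidence. By RT-PCR of E11.5 brain, the study then reported only Lrtm1 as specific to the ventral midbrain. Anxa2, which binds membranes in the presence of calcium, had signals of 10.98 and 8.37 (6.12-fold). Tm4sf1, a transmembrane protein that endothelial cells also carry, had 9.45 and 7.33 (4.33-fold). Folr1, a folate receptor, had 9.79 and 8.51 (2.43-fold), Tacr1, the substance P receptor, 9.87 and 8.75 (2.17-fold), and Lrtm1, a leucine-rich repeat membrane protein, 10.75 and 9.65 (2.14-fold). Of the relatives of Anxa2, Anxa3 (6.57-fold), Anxa5 (3.69-fold) and Anxa6 (3.32-fold) were also higher, in a list of 17 annexins and S100 proteins of which 6 were at least 2-fold higher (list median 0.86). S100a10, the binding partner of Anxa2, had signals of 11.96 and 10.50 (2.74-fold). Macrophage, mesenchymal and endothelial genes were higher in the same array, and their part in these values was not tested.

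Dopaminergic progenitor genes showed only a modest shift. Of 13 genes, 3 were 2-fold or more higher and 0 were 2-fold lower (list median 0.22). The 3 were the homeobox genes Msx2 (9.70 and 7.41, 4.91-fold) and Msx1 (9.84 and 8.21, 3.11-fold) and the ligand Wnt1 (9.86 and 8.47, 2.63-fold), all of which are also roof plate genes. Lmx1b had signals of 10.26 and 9.56 (1.62-fold) and Wnt5a 11.20 and 10.62 (1.49-fold). The broader midbrain genes Otx2 (-0.17), En1 (0.22) and En2 (-0.16) were level. Lmo3, at 10.39 and 10.91, was the lowest.

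Genes listed for the dorsal midline were higher in these ventral cells, though some are shared with other cell types. Of 16 roof plate genes, 8 were at least 2-fold higher and all lay above 0, with a median of 1.12. The ligands Bmp4 (10.45 and 8.20, 4.75-fold), Bmp5 (9.78 and 7.83, 3.85-fold), Bmp6 (2.99-fold) and Bmp7 (2.42-fold) were joined by the zinc finger genes Zic2 (11.88 and 10.61, 2.41-fold), Zic4, Zic5 and Zic1 (0.97, 0.97 and 0.92 on the log2 scale). Msx1, Msx2 and Wnt1, also past 2-fold, are on the dopaminergic progenitor list as well. The roof plate ligands Gdf7, Wnt8b and Wnt3a, with differences of 0.23, 0.24 and 0.07, did not follow. Msx, Bmp and Zic genes are also expressed by cranial mesenchyme, whose transcription factors were higher in the same array, and the part of that tissue in this list was not tested.

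General progenitor genes were level, unlike the regional genes. Of 20 radial glia and ventricular zone genes, 2 were at least 2-fold higher and 1 lower, with a median of 0.02. Sox2 (12.08 and 12.14), Vim (13.70 and 13.67), Notch1 (12.15 and 12.14), Sox9 (12.18 in both) and Nes (12.66 and 12.52) lay between -0.06 and 0.14 on the difference scale. The exceptions were the matrix protein gene Tnc (10.03 and 7.87, 4.47-fold) and the glutamate transporter gene Slc1a3 (10.58 and 9.42, 2.24-fold), both higher, and Pax6 (9.79 and 11.01), which was 2.34-fold lower. Genes of cell division were slightly higher and never past 2-fold: 26 of 30 lay above 0, with a median of 0.23, and Cdk1 (0.51), Bub1 (0.38) and Mki67 (0.35) were among the upper ones. The cyclin gene Ccnd1, at 12.04 and 12.34, was the lowest.

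Genes of progenitors beside the floor plate were lower in CORIN+ cells. All 18 genes of the lateral and dorsal midbrain list lay below 0, with a median of -0.67, and 5 of them were at least 2-fold lower. Olig3 had signals of 8.59 and 10.22 (3.11-fold lower), Helt, which directs midbrain progenitors to a GABAergic fate, 8.28 and 9.72 (2.71-fold lower), and Nkx2-2, a target of Hedgehog signalling just lateral to the floor plate, 9.30 and 10.64 (2.53-fold lower). Pax6 and Nkx6-2 (2.07-fold lower) completed the 5. Helt and Nkx2-2 are also on the GABAergic list. Nkx6-1 (-0.48) and the Irx genes Irx1, Irx2, Irx3 and Irx5 (-0.19 to -0.48) differed less. The dorsal gene Pax3 was nearest to 0 (-0.06), with Pax7 at -0.38.

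The midbrain GABAergic programme was the most uniformly lower list. Of 17 measured genes, 15 were at least 2-fold lower, all lay below 0 and the median was -1.53. The transmitter genes were Gad2 (9.75 in CORIN+ and 11.54 in CORIN- cells, 3.45-fold lower) and Gad1 (8.95 and 10.53, 2.99-fold lower), which make GABA, and Slc32a1 (-1.59 on the log2 scale, 3.01-fold lower), which loads it into vesicles. The transcription factors were Sox14 (9.06 and 10.93, 3.66-fold lower), Tal2 (9.68 and 11.30, 3.07-fold lower), Gata3 (10.64 and 12.17, 2.90-fold lower), Lhx1 (10.51 and 12.04, 2.88-fold lower) and Gata2 (9.98 and 11.43, 2.74-fold lower). Only the GATA cofactors Zfpm1 (-0.86) and Zfpm2 (-0.62) lay under 2-fold. All 17 had a CORIN- signal above the array median. Gata2 and Gata3 act in blood cells too, and they were lower here while the globins and Spi1 were higher.

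**Figure D3:**
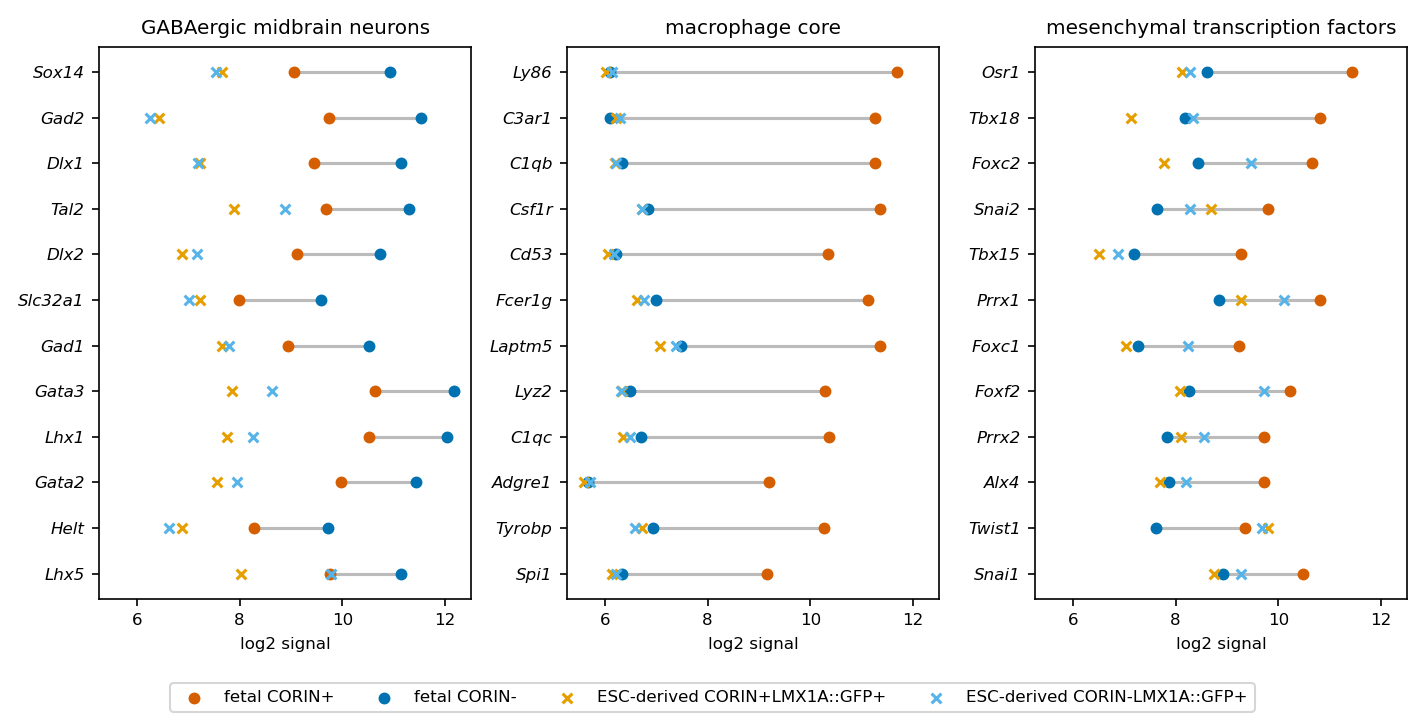
Log2 signal (x axis) of the 12 genes with the largest fetal difference in 3 lists, with filled circles for the fetal CORIN+ and CORIN- arrays joined by a grey line, and crosses for the 2 ESC-derived arrays, 1 array each. Macrophage genes in the fetal CORIN- array lie beside both ESC-derived arrays, as for Ly86 at 6.11, 6.03 and 6.14, and the GABAergic genes are brighter in both fetal arrays than in the CORIN+ array of the ESC-derived pair.

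Forebrain and boundary genes were lower in part. Of 18 forebrain and diencephalic genes, 5 were at least 2-fold lower (list median -0.64). They were Dlx1 (9.45 and 11.15, 3.25-fold lower), Dlx2 (3.03-fold lower), Dlx5 (2.75-fold lower), Six3 (2.37-fold lower) and Emx2 (2.21-fold lower), of which Dlx1, Dlx2 and Six3 are also on the GABAergic list. Tbr1 (0.11), Rax (0.04) and Emx1 (-0.09) were level. At the midbrain-hindbrain boundary Pax5 was 2.84-fold lower (9.31 and 10.82) and Wnt1 higher, while Fgf8 (-0.38) and Pax2 (-0.39) lay under 2-fold. The 37 measured Hox genes, which mark the hindbrain and spinal cord, lay between -0.31 and 0.25. Their median signals were 6.67 in CORIN+ and 6.75 in CORIN- cells, under the array medians. In the hindbrain and serotonergic list of 12 genes the 2 past 2-fold were Gata2 and Gata3, both lower and both also on the GABAergic list, and the median was -0.16. In the list of 10 genes of neural crest, Schwann cells and sensory ganglia only Isl1 passed 2-fold, on the lower side, with a median of -0.20.

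Pan-neuronal genes were lower as a group. All 26 lay below 0, with a median of -0.58, and 2 passed 2-fold: Syt4 (9.98 and 11.20, 2.32-fold lower) and Syt1 (10.44 and 11.55, 2.16-fold lower), calcium sensors of vesicle release. Tubb3, the neuronal tubulin, had signals of 11.93 and 12.50, Dcx, a microtubule protein of migrating neurons, 12.38 and 12.90, and Stmn2 12.84 and 13.37. Neuronal transcripts thus gave bright signals in both populations. Nhlh1, a transcription factor of newly born neurons, differed least (-0.09).

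Dopaminergic neuron genes lay on both sides of 0. Of 14 measured genes, 10 lay below 0 and 4 above, with a median of -0.24, and 0 were at least 2-fold higher. Th, tyrosine hydroxylase, the enzyme that sets the rate of dopamine production, had signals of 10.89 and 10.02 (1.82-fold higher). Nr4a2, the transcription factor NURR1, had 12.30 and 11.66 (1.56-fold higher), and Aldh1a1, an aldehyde dehydrogenase of dopaminergic precursors, 7.74 and 6.82 (1.90-fold higher). None of the 3 passed 2-fold, and Aldh1a1 was under the array median in both populations. The dopamine transporter gene Slc6a3 was dim in both arrays (7.16 and 7.33), Pitx3 differed by 0.15, and Ddc (-0.29) and Slc18a2 (-0.27) were slightly lower. Calb1, the calcium buffer calbindin, was the only one past 2-fold, at 7.28 and 8.45 (2.24-fold lower). In the oculomotor, red nucleus and glutamatergic list of 16 genes Isl1 was 2.10-fold lower (8.64 and 9.70), Slc5a7, the choline transporter, was highest at 7.96 and 7.20, and the median was -0.22.

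Among the 20 lowest clusters, several neuronal genes outside the lists were seen. Sst, the peptide somatostatin, had signals of 10.08 and 11.67 (-1.59 on the log2 scale). Slc30a3, the zinc transporter of synaptic vesicles, had 8.73 and 10.41 (-1.68 on the log2 scale), and Nrxn3, a presynaptic adhesion protein, 9.51 and 10.99 (2.80-fold lower). Rpp25, a subunit of ribonuclease P, was 3.30-fold lower, Tmem130 3.09-fold, Clvs2 2.83-fold and Fstl5 2.79-fold lower. In the Notch and proneural list of 22 genes, 2 effectors were higher, Hey2 (9.93 and 8.22, 3.28-fold) and Heyl (9.70 and 8.68, 2.02-fold), both of which vascular cells also express. The proneural gene Neurog2 differed by 0.18, Neurog1 by -0.56 and Insm1 by -0.63, and the median was -0.10.

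The signalling lists differed in which components moved. In the Hedgehog list of 16 genes the median was 0.12 and only Hhip passed 2-fold, at 8.26 and 9.38 (2.18-fold lower). Hhip, Ptch1 (-0.17) and Gli1 (0.02) are targets of the pathway, and they did not differ alike. In the BMP and TGF-beta list of 30 genes, 8 were 2-fold or more higher and 0 were 2-fold lower (list median 0.58). The ligands Bmp4, Bmp5, Bmp6, Bmp7 and Tgfb1 (3.83-fold) made up 5 of these 8, with Tgfbi (4.28-fold), Tgfbr2 (2.95-fold) and Eng, while the antagonists Grem1 (-0.47) and Fst (-0.38) and the BMP target Id2 (0.07) were not higher. In the Wnt list of 38 genes, 4 were 2-fold or more higher and 0 were 2-fold lower (list median 0.19). They were Dkk2, a Wnt modulator (10.27 and 8.23, 4.11-fold), Wnt1, Dkk3 (2.06-fold) and the feedback inhibitor Nkd1 (2.04-fold). Axin2, a target of the pathway, was at 1.43-fold, and Wnt7a (-0.74) and Wnt3 (-0.59) were the lowest. The FGF list of 25 genes had 0 past 2-fold and a median of -0.09, between Dusp6 (0.70) and Fgf15 (-0.81).

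Retinoid and growth factor genes were each led by a few members. Of 16 retinoid genes, 4 were at least 2-fold higher (list median 0.25). They were the receptors Rarb (10.05 and 8.39, 3.17-fold) and Rarg (2.12-fold), Stra6, the receptor for retinol-binding protein (11.11 and 9.74, 2.59-fold), and Dhrs3, a retinaldehyde reductase (2.08-fold). The enzymes that break down retinoic acid, Cyp26a1, Cyp26b1 and Cyp26c1, differed by -0.03, -0.11 and -0.21. Of 16 IGF and imprinted growth genes, 3 were at least 2-fold higher, Igf1 (10.21 and 7.81, 5.26-fold), Igf2 (13.01 and 11.30, 3.27-fold) and Igfbp4 (2.16-fold). The imprinted genes Dlk1 (-0.51) and Ndn (-0.42) were on the other side of 0, and the median was 0.22.

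Axon guidance genes were higher in some members and lower in others. Over the 38 genes the median was 0.02, with 5 at least 2-fold higher and 2 lower. The genes were parted into cues and receptors after their values had been seen, and the difference between these groups was not tested. Of 18 secreted or membrane-bound cues, 13 lay above 0 and 2 were at least 2-fold higher (list median 0.32). Of 20 receptors, 14 lay below 0, with 3 at least 2-fold higher and 2 lower and a median of -0.46. Over the whole semaphorin family of 20 genes, 11 lay below 0 and the median was -0.10. Sema3a was the highest cue (9.43 and 7.79, 3.12-fold), and Slit2, Slit3 (1.98-fold) and Slit1 were all higher. Their receptors Robo1 (-0.46), Robo2 (-0.60) and Robo3 (-0.46), which neurons carry on their axons, were all lower, and so were the netrin receptors Dcc (-0.50) and Unc5b (8.89 and 10.02, 2.17-fold lower) beside a higher Ntn1. The receptors past 2-fold on the higher side were Plxnd1, which vessels also carry (2.43-fold), Nrp2 (2.25-fold) and Epha7 (2.12-fold). Epha5 was the lowest receptor (8.99 and 10.19, 2.29-fold lower). In the ESC-derived pair 14 of the 20 receptors lay below 0 as well, with a median of -0.28, and the cues had a median of -0.05.

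A microRNA is encoded inside each of 2 Slit genes, and the array has a cluster for both hairpins. According to RefSeq (GRCm38.p6), miR-218-5p of Mir218-1 lies inside Slit2 at chr5:48223966-48223986 on the + strand, and miR-218-5p of Mir218-2 inside Slit3 at chr11:35616840-35616860 on the + strand. The mature sequences are shown because the 5p arms of both loci are the same and share a seed (bases 2 to 8, in capitals), while the 3p arms of the loci differ.
mmu-miR-218-5p: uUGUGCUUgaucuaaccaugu
mmu-miR-218-1-3p: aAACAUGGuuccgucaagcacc
mmu-miR-218-2-3p: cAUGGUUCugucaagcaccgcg
The Mir218-1 cluster had signals of 8.13 and 7.26 in the same order (0.86 on the log2 scale, 1.82-fold higher), next to 1.47 for its host Slit2. The Mir218-2 cluster had 6.28 and 6.43 (-0.14), next to 0.99 for its host Slit3, and was dim in both. The 2 hairpin clusters therefore differed while both hosts were higher. These clusters read the primary transcript or hairpin after whole-transcript labelling and not the mature microRNA. Over 296 microRNA loci the median was -0.05, 1 was at least 2-fold higher (Mir145a, 7.02 and 5.98, 2.06-fold), 0 were lower, and the lowest was Mir376b (-0.69). Mir124a-2 and Mir124a-3, loci of a neuronal microRNA, differed by -0.43 each. Mir145a and both Mir124a loci were under the array median in both populations.

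Motile cilium genes, which floor plate cells can express, were flat. Of 34 genes, only Jhy, needed for ciliary structure, passed 2-fold (9.37 and 7.75, 3.06-fold), and the median was -0.06. The regulator Foxj1 had signals of 8.90 and 8.61 (0.28). In the fetal arrays 26 of the 34 were under the median of both arrays. In the ESC-derived pair the median of the same list was 0.65.

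Immediate-early genes, some of which respond to tissue dissociation, were partly higher. Of 26 genes, 5 were 2-fold or more higher and 0 were 2-fold lower (list median 0.31). Zfp36 had signals of 10.09 and 7.64 (5.46-fold), Fos was 4.40-fold higher (2.14 on the log2 scale), Fosb had 9.77 and 8.46 (2.48-fold), and Atf3 and Klf6 were 2.12-fold and 2.05-fold higher. Egr1, at 10.43 and 9.43, lay just under the threshold. Junb (0.09), Ier2 (0.13), Dusp1 (-0.06) and Hspa1a (-0.00), from the same response, were level, so the list did not move as a block. The macrophage core list was higher in the same array (22 of 31 at least 2-fold), and its part in these values was not tested. Of 18 genes of antigen presentation and interferon response, 4 were at least 2-fold higher. Ifitm3 (9.10 and 6.79, 4.95-fold), Ifitm1 and Ifitm2 are membrane proteins that also mark embryonic mesenchyme, and B2m (12.20 and 10.91, 2.45-fold) is the light chain of class I molecules. The class II genes H2-Aa (-0.21), H2-Ab1 (0.12) and Cd74 (0.18) were dim and level.

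Most gene families with members past 2-fold held them in 1 direction. The 6 Dlx genes had a median of -1.17, with Dlx1, Dlx2 and Dlx5 past 2-fold and the non-neural members Dlx3 (-0.26) and Dlx4 (-0.16) near 0. The Eph receptors held 1 gene past 2-fold on each side, as did the homeobox family of Six3 and Six2. Six3 was lower (8.61 and 9.86) and Six2, which is expressed in mesenchyme, was higher (10.37 and 8.86, 2.86-fold). In the Gata family Gata2 and Gata3 were lower and Gata1, Gata4, Gata5 and Gata6 lay between 0.01 and 0.30. Of 20 Ets family members, 5 were at least 2-fold higher, and these were Spi1, Fli1, Elf4 (2.68-fold), Elk3 (2.20-fold) and Ets1 (2.11-fold), genes of blood cells and vessels. Of 44 collagens 10 were at least 2-fold higher, and of 10 laminins 5. Of 19 Ms4a genes 5 were at least 2-fold higher, with Ms4a6c at 10.67 and 5.59 (33.9-fold), Ms4a6b (10.7-fold) and Ms4a6d (8.03-fold), while the B cell gene Ms4a1 was at -0.07. Ribosomal protein genes (57, from -0.16 to 0.30), proteasome subunits (39, from -0.16 to 0.29) and keratins (48, from -0.35 to 0.33) had 0 members past 2-fold in either direction.

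**Figure D4:**
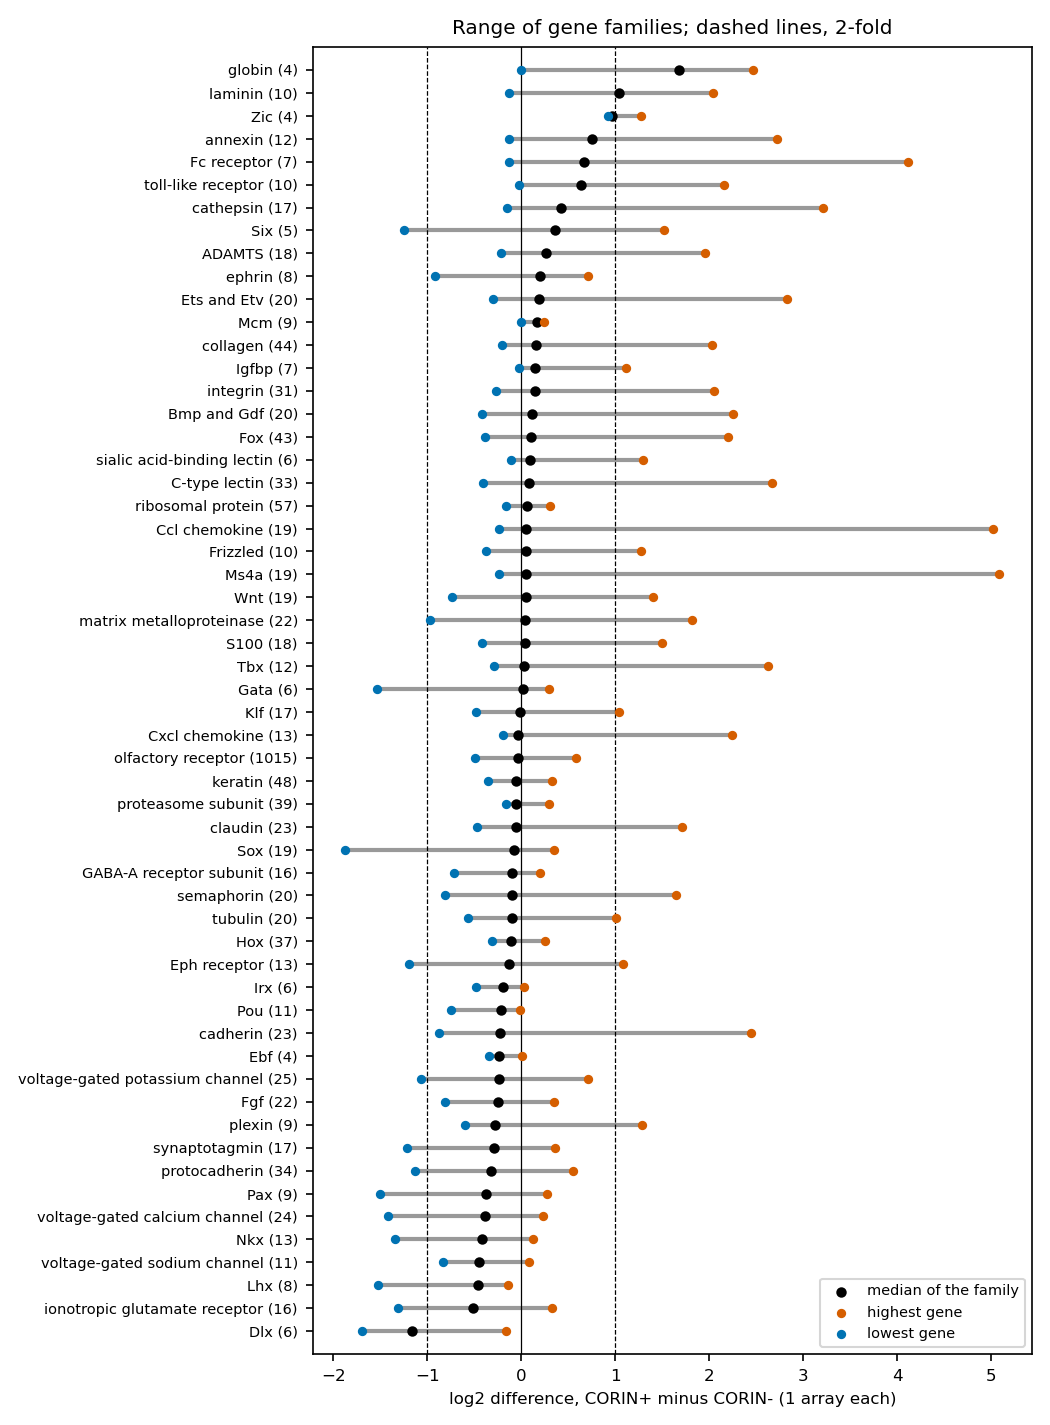
Range of the log2 difference (CORIN+ minus CORIN-, 1 array each) over the measured genes of each family, with the family median in black, the highest and lowest gene as coloured points, the number of genes in brackets and dashed lines at 2-fold. The Ms4a and Ccl families have medians of 0.05 but reach 5.08 and 5.02 through Ms4a6c and Ccl3, and the Dlx family has the lowest median (-1.17).

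The ESC-derived pair was also sorted by CORIN but came from culture, and some fetal differences were seen there too. Of the 627 higher genes, 16 (2.55%) were also at least 2-fold higher in the ESC-derived pair, beside 0.376% of all genes, and 18 (2.87%) were at least 2-fold lower there, beside 0.522%. Corin, the target of both sorts, and all 5 surface candidates, which the study chose in this way, are among the 16. Those 18 included mesenchymal and vascular genes such as Tbx18, Foxc2, Foxc1, Foxf2, Lum, Bgn, Cdh5, Emcn and Cd34, and also Bmp4, Tnc and Zic2. For example, Foxc2 had ESC-derived signals of 7.78 with CORIN and 9.47 without it, and Cdh5 6.68 and 8.38. Of the 91 lower genes, 6 (6.59%) were also at least 2-fold lower in the ESC-derived pair, Lhx5, Dscam, Rpp25, Olig2, Gjd2 and Cacng3, and 1, Elmod1, was at least 2-fold higher. Of the 717 higher clusters, 255 were under the array median in fetal CORIN- cells and in both ESC-derived arrays, and so were 19 of the 20 highest. How many of all clusters are dim in the same arrays was not counted, so the 255 cannot be set against a background share. The exception among the 20 highest was Corin. The macrophage list, with a median of 1.95 in the fetal pair, had a median of -0.03 in the ESC-derived pair.

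**Figure D5:**
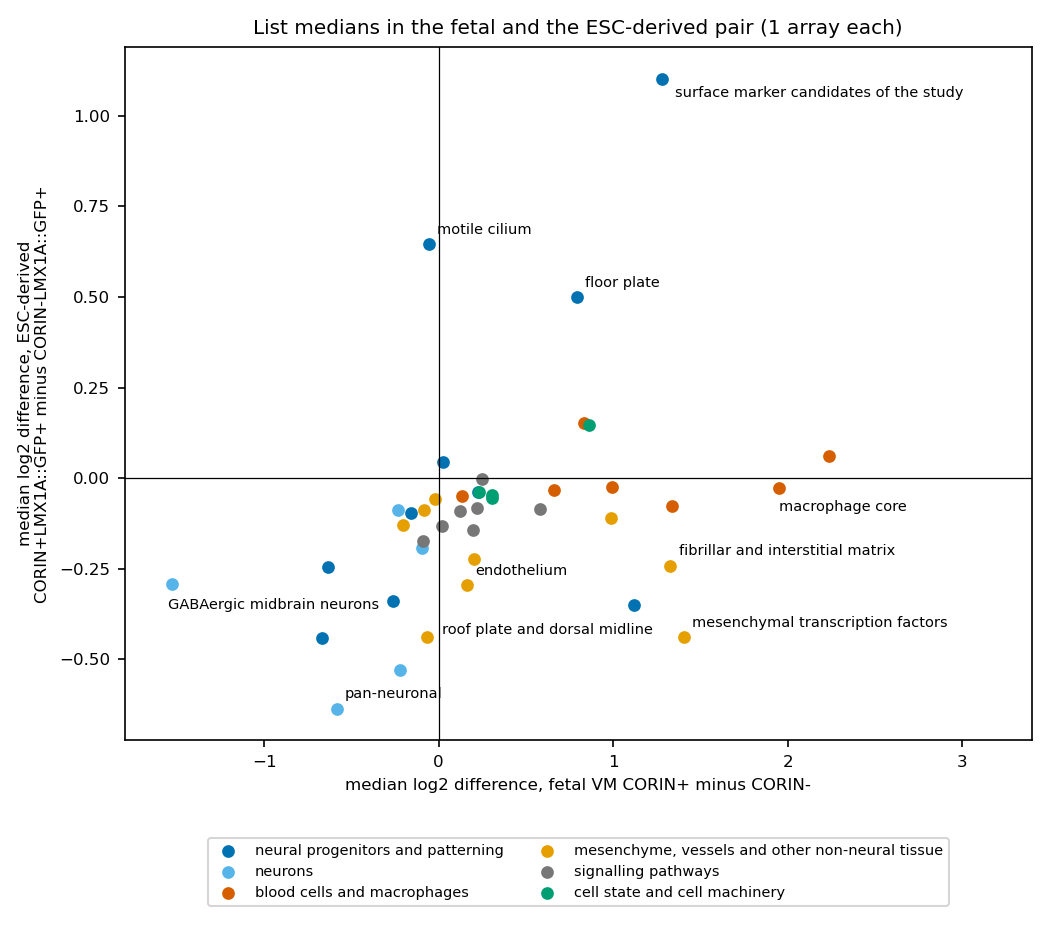
Median log2 difference of each list in the fetal pair (x axis) and in the ESC-derived pair (y axis), CORIN+ minus CORIN- with 1 array each, coloured by class. The floor plate list and the surface candidates are above 0 in both pairs, the pan-neuronal list is below 0 in both, macrophage lists lie near 0 on the y axis, and mesenchymal transcription factors are at 1.41 and -0.44.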

How the data were processed

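The authors turned total RNA into biotinylated cDNA (Ambion WT Expression kit), measured it on Affymetrix arrays that cover whole transcripts, analysed the data with GeneSpring and deposited 1 log2 signal for each of 28856 transcript clusters and 4 arrays. For probe summarization, background correction, normalization between arrays and genome build, the method is not given in the sources used here. Detection calls were not used, so a dim signal bounds no level. Arrays had median signals of 7.97 to 8.03.

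The platform annotation paired 21789 clusters with 1 symbol, 1621 with several and 5446 with none. Of the single-symbol clusters, 21698 were matched by gene identifier to the GRCm38.p6 annotation and given its symbol, whether or not it differed. Clusters with several or no symbols gave no named gene. Log2 differences were CORIN+ minus CORIN- of the deposited log2 values, and 2-fold was a difference of 1. No test was run, because each population has 1 array. Named genes were Corin, Alcam, Slit2, the 5 surface candidates, the 20 highest and 20 lowest clusters, and within each list up to 8 members past 2-fold, up to 4 nearest the median or 0 and up to 3 against its direction, with up to 4 at each end of a family. Genes named outside this rule, as illustrations of a role or family or of agreement or disagreement with the ESC-derived pair, were chosen after their values were seen. The members, gene lists and families were chosen with earlier results of these data known. The alternatives were quantile normalization of both fetal arrays, centring on the median, filters at the 20th and 50th percentile of signal, an offset of 32 on the linear scale, cut-offs of 1.5-fold and 3-fold, all clusters, and the mean over the clusters of a gene. Counts and medians were tested on a simulated pair of arrays. Python 3.11.15, numpy 2.4.6 and pandas 2.3.3 were used.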

Additional observations from a re-analysis of the deposited data

Results flagged for a closer look

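In 4 lists the median difference had opposite signs in the fetal and the ESC-derived pair, each beyond the spread of the differences of its own pair (scaled median absolute deviation). Each pair has 1 array per population, and the difference between the pairs was not tested. The roof plate list had a median of 1.12 in the fetal pair and -0.35 in the ESC-derived pair, the mesenchymal transcription factors 1.41 and -0.44, and the fibrillar and interstitial matrix 1.33 and -0.24. Pericyte and smooth muscle genes had medians of 0.20 and -0.22. In the fetal pair the cells were sorted by CORIN alone, and in the ESC-derived pair both populations were also LMX1A::GFP+, so stage, source and gate cannot be told apart.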

How the results depend on the processing

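No paired analysis was possible because each population has 1 array. At 1.5-fold, 1325 single-symbol clusters were higher and 599 lower, and at 3-fold 283 and 11, beside 717 and 98 at 2-fold. Over all clusters on the array 194 were at least 2-fold lower, because clusters with no symbol were added. The macrophage core median of 1.95 became 1.65 with 32 added to the linear signal. With only clusters above the 50th percentile in at least 1 array it became 3.07, and the erythroid and endothelial medians became 1.36 and 1.19 from 0.66 and 0.16, since this filter drops members that are dim in both arrays. The other counts stayed within 1.5 times, and the other main list medians moved by less than the spread of all differences (0.18, scaled median absolute deviation). Over all 42 lists, 15 medians moved with the 50th percentile filter, and each other setting moved at most 1. Of the named genes, 40 moved with the offset of 32 and 258 did not. With the mean over the clusters of a gene, 5 moved and 3 did not. No called value changed sign. Signal over background cannot be judged without detection calls, and it limits differences of dim clusters.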

Other observations

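Genes of neuronal excitability lay on the lower side beside the GABAergic list. Of 16 ionotropic glutamate receptor genes, 3 were at least 2-fold lower in CORIN+ cells, and the family median was -0.51. They were Grik3 (8.76 in CORIN+ and 10.08 in CORIN- cells), Gria1 (7.98 and 9.21) and Gria2 (9.31 and 10.46). Of 24 voltage-gated calcium channel subunits, 3 were at least 2-fold lower, led by Cacna2d3 (8.77 and 10.18), with a median of -0.38. The 11 voltage-gated sodium channel genes had a median of -0.45 with 0 past 2-fold, and the 16 GABA-A receptor subunits a median of -0.10 with 0 past 2-fold, although the genes that make GABA were lower.

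Toll-like receptors were higher in part, and adhesion families were mixed. Of 10 toll-like receptors 4 were at least 2-fold higher, Tlr7 (7.65 and 5.50), Tlr13 (7.61 and 5.92), Tlr1 (7.28 and 5.70) and Tlr4 (6.86 and 5.53). All 4 were under the array median in both populations. Of 31 integrins 5 were at least 2-fold higher, led by Itga11 (10.27 and 8.22), a collagen receptor of fibroblasts. Of 23 classical and other cadherins, 15 lay below 0 (median -0.23) and only Cdh5 passed 2-fold, and Cdh11, a mesenchymal cadherin, was at 12.67 and 11.79. Of 34 protocadherins, 31 lay below 0 (median -0.32) and 1, Pcdh11x, was at least 2-fold lower.

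Clusters with no symbol ran against the named ones. Of 5446 such clusters, 96 were at least 2-fold lower in CORIN+ cells (1.76%) and 38 higher (0.698%), beside 0.45% and 3.29% of single-symbol clusters. Of the 96, 95 had a CORIN- signal under the array median, and their median signals were 5.29 in CORIN+ and 6.67 in CORIN- cells. What these clusters measure is not known here.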
